A study of Mus musculus with 14 samples.

Results

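The insulin-like growth factor family was followed through layer II/III of the mouse cerebral cortex at postnatal day 5, in 2 experiments on the transcription factor Lhx2. Its 10 members here are the ligands Igf1 and Igf2, the receptors Igf1r and Igf2r, the docking protein Irs1 and the binding proteins Igfbp2, Igfbp3, Igfbp4, Igfbp5 and Igfbp6. They were taken by symbol, and all 10 had a row among the 25229 symbols of the progenitor table and among the 55353 symbols of the postmitotic table. The family was chosen with its fold changes in these same libraries known, so those fold changes are given as a description, without p-values.

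All 14 libraries carried Lhx2lox/lox, a floxed Lhx2 gene, and an EGFP plasmid delivered by in utero electroporation. The day of electroporation was E15.5 for the progenitor libraries and is not recorded here for the postmitotic ones. In the progenitor experiment, a Cre-EGFP plasmid was electroporated (libraries labelled mutant, n = 4) or an EGFP plasmid alone (control, n = 4). In the postmitotic experiment, the EGFP plasmid was electroporated into NexCre/+; Lhx2lox/lox cortex (labelled mutant, n = 3) or into Lhx2lox/lox cortex (control, n = 3). NexCre expresses Cre from the Neurod6 locus in young excitatory neurons, and the electroporated Cre reaches only the cells that take up the plasmid. The controls lacked Cre, so effects of Cre or of the NexCre allele itself cannot be told apart from those of deleting Lhx2. The sample titles name labelled neurons for mutant and control libraries alike, and labelled mutant means here only that the title says mutant. The labels describe microdissected, trypsin-dissociated tissue and name no sort of the labelled cells. The labels do not tie libraries to animals, so errors cover the spread between libraries, part of which may be technical.

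Library totals were 22677019 to 24002981 counts in progenitor libraries labelled mutant, each below the 24947089 to 29497595 counts of progenitor controls, and 21605777 to 25891416 counts in the postmitotic experiment. Markers of upper-layer excitatory neurons were the most abundant marker list in every library, with summed levels of 3333 to 4138 CPM, that is, counts scaled to a common library total. Lhx2 itself was not lower under the mutant label. It averaged 130 ± 11.4 CPM in progenitor libraries labelled mutant and 127 ± 9.10 CPM in progenitor controls (SD, n = 4 each), and its log2 fold change was 0.02 ± 0.07 (SE). It averaged 179 ± 7.41 CPM in postmitotic libraries labelled mutant and 147 ± 3.48 CPM in postmitotic controls (SD, n = 3 each). Its log2 fold change there was 0.29 ± 0.06, at an adjusted p of 0.0276 in edgeR's quasi-likelihood test. Counts per gene do not show whether the floxed part of the gene was still read. Y-linked genes exceeded 1 CPM in 3 of 4 libraries labelled mutant and 0 of 4 controls of the progenitor experiment, and in 1 of 3 libraries labelled mutant and 2 of 3 controls of the postmitotic one. In library 3 labelled mutant of the progenitor experiment, Y-linked genes at 99.4 CPM came together with Xist at 554 CPM. Library 2 labelled mutant of that experiment had Y-linked genes at 155 CPM with Xist at 8.02 CPM. Other libraries with Y-linked genes above 1 CPM had Xist at 0.0418 to 0.317 CPM.

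Insulin-like growth factors are secreted peptides that bind the Igf1r tyrosine kinase, which signals through Irs docking proteins to phosphoinositide 3-kinase, Akt and mTOR, and through Ras to the extracellular signal-regulated kinases. Binding proteins hold most of the extracellular ligand and either withhold it from the receptor or carry it there. In developing brain the pathway is known for promoting growth and survival of neurons and the extension of their processes, and Igf2 is known there as a product of the meninges and choroid plexus.

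Igfbp5 showed the largest difference of the family: it was 2.01-fold higher in postmitotic libraries labelled mutant than in their controls, and 1.24-fold higher in the progenitor experiment. Both receptors, Igf1r and Igf2r, were slightly higher in progenitor libraries labelled mutant, by 1.14-fold and 1.21-fold, while the groups of the postmitotic experiment overlapped for both. Igfbp3 was lower in the progenitor and higher in the postmitotic libraries labelled mutant, at differences that missed the threshold over all genes. Igf1, Irs1, Igfbp2 and Igfbp4 overlapped between the groups of both experiments. Igf2 and Igfbp6 varied more between libraries of one group than between groups.

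Both experiments were tested with edgeR over all genes, and a gene was called at a Benjamini-Hochberg adjusted p under 0.05. In the progenitor experiment 3 of 10 members were called, all higher under the mutant label, against 23.4% of the 15295 genes tested (1838 higher and 1739 lower). The count of members called lower was 0, with 1 at an unadjusted p under 0.05 and 0 by DESeq2. In the postmitotic experiment 8 members passed the filter on low counts and 1 was called, against 1.96% of 17775 genes (159 higher and 189 lower). Again 0 members were called lower, with 1 at an unadjusted p under 0.05 and 0 by DESeq2. Igf2 and Igfbp6 did not pass that filter. The median log2 fold change was -0.03 over the 10 progenitor and 0.02 over the 8 postmitotic members, close to the medians of all genes, 0.00 and -0.00. The CPM of the groups did not overlap for Igf1r and Igf2r in the progenitor experiment, where 27.0% of all genes had no overlap, and for Igfbp3 and Igfbp5 among the tested members of the postmitotic experiment, where 16.4% had none. Because the family was chosen on these contrasts, nothing is read from these counts.

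**Figure D1:**
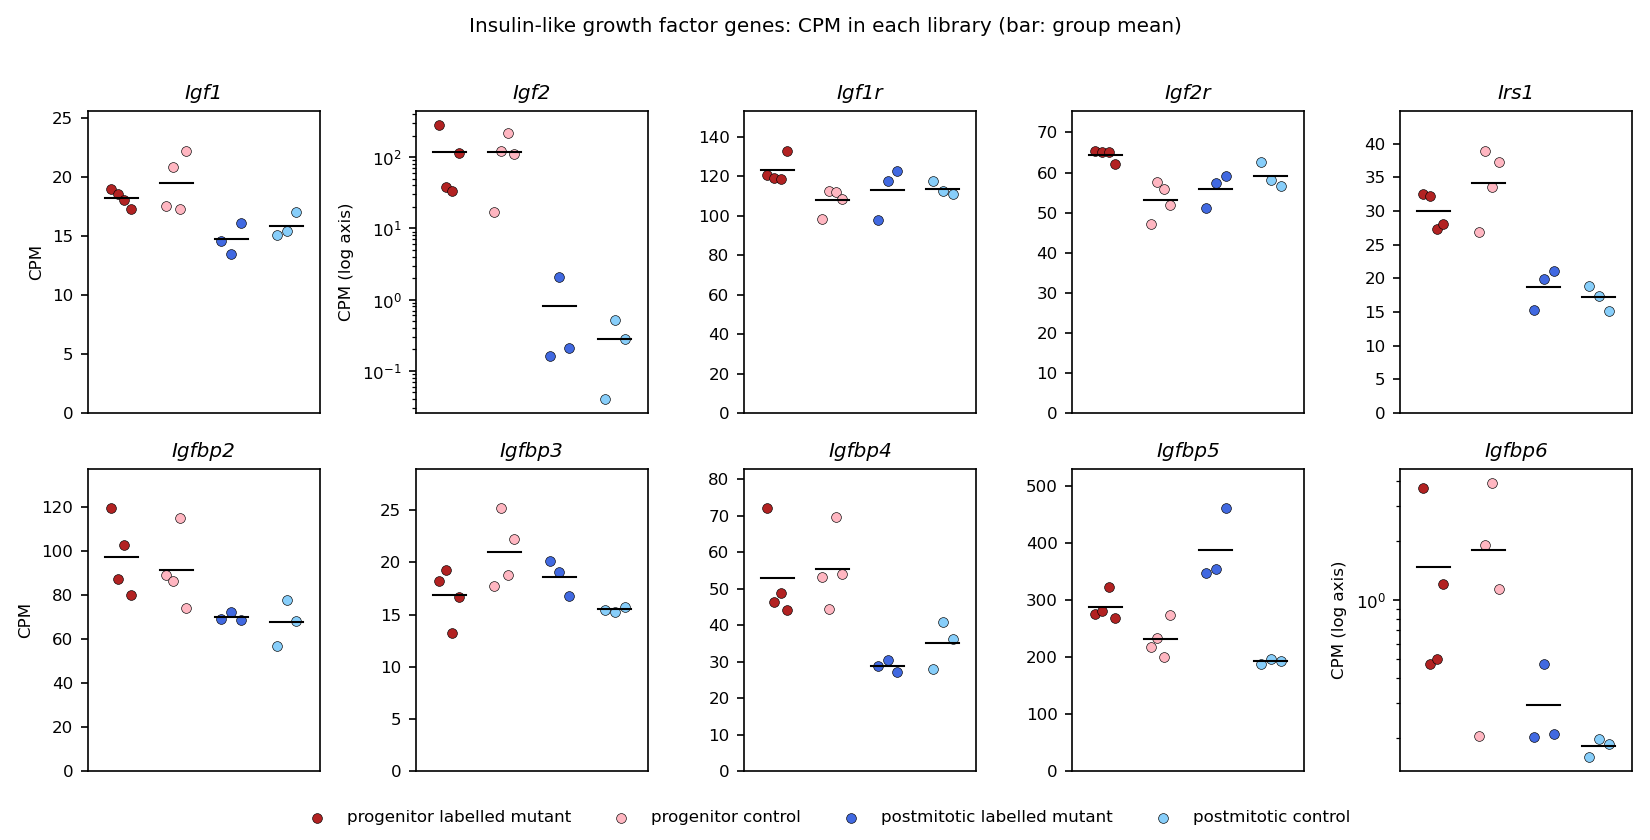
CPM of each of the 10 genes in every library (points) with the mean of each group (bars), for progenitor labelled mutant, progenitor control, postmitotic labelled mutant and postmitotic control; the axes of Igf2 and Igfbp6 are logarithmic and the others start at 0. Igfbp5 in the 3 postmitotic libraries labelled mutant sits at 348 to 461 CPM, above all 3 controls at 188 to 196 CPM, while Igf2 spreads from 16.8 to 283 CPM within the progenitor experiment.

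The levels of the members were compared per kilobase of annotated exon, as CPM per kb. In progenitor libraries labelled mutant the order was Igfbp2 (52.7 ± 9.44 CPM per kb), Igfbp5 (47.8 ± 4.07), Igf2 (20.4 ± 20.4), Igfbp4 (11.97 ± 2.92), Igf1r (7.32 ± 0.40), Igf2r (6.92 ± 0.17), Igfbp3 (5.39 ± 0.84), Irs1 (3.29 ± 0.30), Igf1 (1.84 ± 0.073) and Igfbp6 (1.32 ± 1.37; SD, n = 4). Binding proteins thus headed the order, with the ligand Igf1 near its end. The ranges of Igfbp2 and Igfbp5 overlapped (43.3 to 64.6 and 44.8 to 53.8 CPM per kb). Progenitor controls had the same first 4 places, with Igfbp2 at 49.3 ± 9.24, Igfbp5 at 38.5 ± 5.28, Igf2 at 20.4 ± 14.4 and Igfbp4 at 12.5 ± 2.38 CPM per kb (SD, n = 4). There the ranges of Igfbp2 and Igfbp5 overlapped (40.2 to 62.2 and 33.4 to 45.7 CPM per kb), as did those of the next 3 genes, Igfbp3, Igf1r and Igf2r. The order at the top was reversed in postmitotic libraries labelled mutant, where Igfbp5 at 64.6 ± 10.5 CPM per kb lay above Igfbp2 at 37.9 ± 1.04 without overlap (SD, n = 3). In postmitotic controls Igfbp2 had 36.6 ± 5.67 and Igfbp5 had 32.1 ± 0.63 CPM per kb, and their ranges overlapped. Counts of the experiments come from separate tables, so levels are ordered within a table only.

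Igfbp5 and Igfbp2 are neighbours on chromosome 1 (GRCm38/mm10). Igfbp5 lies on the minus strand at chr1:72857932-72874884 and Igfbp2 on the plus strand at chr1:72824503-72852474, so their 3′ ends face each other across 5457 bases. The 250 bases before a RefSeq start of each gene (GRCm38.p6) are shown because these adjacent genes head the order of levels. Igfbp2 has a further RefSeq start, whose window (chr1:72825137-72825386, plus strand) holds 11 CG pairs and is not shown. Capitals mark CG pairs, of which Igfbp5 (chr1:72874866-72875115, minus strand) has 10 and Igfbp2 (chr1:72824230-72824479, plus strand) has 14, where the median over the windows of all genes is 6.
Igfbp5: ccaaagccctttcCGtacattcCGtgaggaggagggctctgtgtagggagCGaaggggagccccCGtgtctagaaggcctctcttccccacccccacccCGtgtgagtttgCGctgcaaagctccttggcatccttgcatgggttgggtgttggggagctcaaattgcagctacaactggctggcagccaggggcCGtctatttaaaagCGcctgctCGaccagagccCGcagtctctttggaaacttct
Igfbp2: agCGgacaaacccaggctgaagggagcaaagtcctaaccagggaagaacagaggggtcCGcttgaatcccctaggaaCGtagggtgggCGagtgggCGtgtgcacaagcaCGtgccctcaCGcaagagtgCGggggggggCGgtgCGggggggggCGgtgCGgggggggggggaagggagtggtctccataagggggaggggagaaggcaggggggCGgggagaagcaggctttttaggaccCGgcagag
The 10 members have 14 such windows. The motif TAATTA, a core recognised by many homeodomain proteins and equal to its own reverse complement, is in 0 of the 14 windows and in 4.84% of 32851 windows of all genes. The motif GGGCGG, the GC box, read on both strands, is in 6 windows of 5 members (Igf1r, Igf2, Igf2r, Igfbp2 and Irs1) and in 32.7% of all windows. These are matches of letters in one window only.

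Of the ligands, Igf1 (chr10:87858265-87937042, plus strand), the ligand known for postnatal growth, had 18.97, 18.6, 18.1 and 17.3 CPM in progenitor libraries labelled mutant, against 17.5, 20.9, 17.3 and 22.3 CPM in progenitor controls. Postmitotic libraries labelled mutant had 14.6, 13.5 and 16.1 CPM, against 15.1, 15.4 and 17.0 CPM in postmitotic controls. The groups overlapped in both experiments, with log2 fold changes of -0.10 ± 0.09 and -0.11 ± 0.11 (SE), and 95% intervals of -0.30 to 0.10 and -0.35 to 0.14. In these bulk libraries, fewer cells of a type and less RNA per cell cannot be told apart.

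Igf2 (chr7:142650766-142666816, minus strand), the imprinted ligand that predominates before birth, had 283, 37.6, 33.7 and 113 CPM in progenitor libraries labelled mutant. In progenitor controls it had 16.8, 121, 218 and 110.2 CPM. Library 1 labelled mutant and control 3 were highest, and the groups overlapped throughout. The highest library exceeded the lowest 16.4-fold, and the SD within groups, 1.52 on the log2 scale, was at percentile 99.9 of all genes, whose median was 0.122. The log2 fold change of -0.0009 ± 0.96 (SE) has a 95% interval of -2.34 to 2.34, so that a change inside these bounds was not detectable.

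Among the 11298 progenitor genes with at least 5 CPM, the gene whose centred log2 CPM lay nearest to those of Igf2 over the 8 libraries was Col1a2, a fibrillar collagen gene of connective tissue, at a root mean square distance of 0.143 against a median of 1.33. Ogn, Col3a1, Cldn11 and Aebp1 followed at distances of 0.214 to 0.319. This search on Igf2 was chosen after its values were seen. Igf2 was counted 6506, 873, 812 and 2603 times in progenitor libraries labelled mutant, beside 3191, 457, 407 and 1093 counts of Col1a2. In progenitor controls Igf2 had 412, 3181, 5782 and 3203 counts, beside 168, 1459, 3094 and 1311 counts of Col1a2. The ratio of Igf2 to Col1a2 thus stayed between 1.87 and 2.45 in all 8 libraries. As Col1a2 was picked for its likeness to Igf2 over these libraries, a steady ratio was fixed by that choice and is no separate result. The summed level of 8 markers of meningeal fibroblasts, Col1a2 among them, was 49.3 to 430 CPM in progenitor libraries labelled mutant and 30.3 to 390 CPM in progenitor controls. None of the 8 was at 0 in a progenitor library, and 0 of them were called (0 also at an unadjusted p under 0.05 and by DESeq2).

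In the postmitotic table Igf2 was counted 4, 52 and 5 times in libraries labelled mutant, beside 97, 840 and 130 counts of Col1a2. In postmitotic controls it was counted 1, 13 and 6 times, beside 113, 222 and 125 counts of Col1a2. The ratio of Igf2 to Col1a2 was 0.00885 to 0.0619 in these 6 libraries, far below that in the progenitor table. The ratio of Igfbp6 to Col1a2 did not separate the tables in this way, with 0.0241 to 0.0343 in the progenitor and 0.0143 to 0.0515 in the postmitotic table. Nor did that of H19, the imprinted noncoding neighbour of Igf2, looked at after the Igf2 values were seen, with 0.128 to 0.341 in the progenitor and 0.151 to 0.515 in the postmitotic table. The annotated gene Gm49394 (chr7:142650769-142669942, same strand) shares 3596 bases, or 62.8%, of the exon bases of Igf2, and it is listed at 0 in all 6 postmitotic libraries. How reads on both genes were assigned is not recorded in the labels, and its part in the low Igf2 counts was not tested. Igf2 levels are therefore not set against each other across the tables. Within the postmitotic experiment, library 2 labelled mutant had the most Igf2, and its fibroblast markers summed to 112 CPM, against at most 32.0 CPM in the controls.

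**Figure D2:**
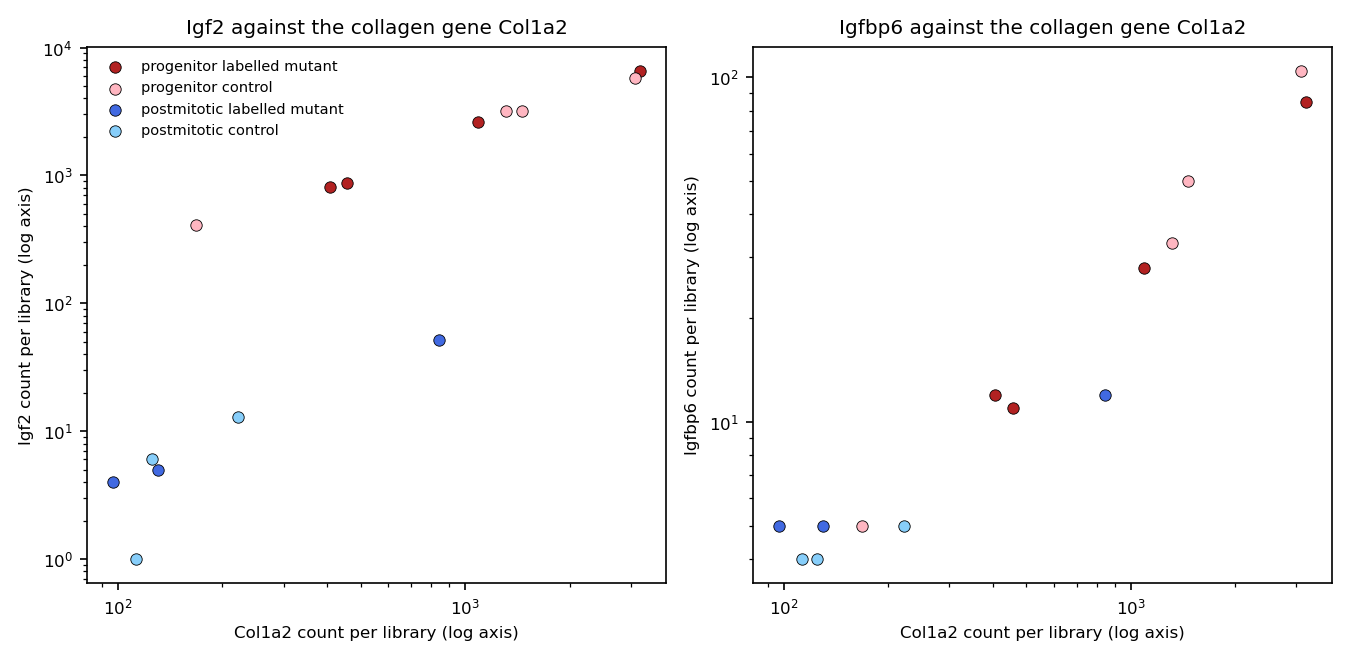
Counts per library of Igf2 (left) and of Igfbp6 (right) against counts of the collagen gene Col1a2, on logarithmic axes, with 1 point per library coloured by group. The 8 progenitor libraries lie along one line in the left panel, at 1.87 to 2.45 Igf2 counts per Col1a2 count, and the 6 postmitotic libraries lie far under it, while in the right panel both experiments lie along a common band. Col1a2 was picked as the gene nearest to Igf2 over the progenitor libraries, which fixed that line.

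Of the receptors, Igf1r (chr7:67952827-68233668, plus strand), the kinase that transmits the signal of both ligands, had 121, 119, 119 and 133 CPM in progenitor libraries labelled mutant, against 98.2, 112, 112 and 109 CPM in progenitor controls. Every library labelled mutant was above every control. The means were 123 ± 6.76 and 108 ± 6.62 CPM (SD, n = 4 each), and the log2 fold change was 0.19 ± 0.06 (SE; 95% interval 0.06 to 0.32). Igf1r had 98.1, 118 and 123 CPM in postmitotic libraries labelled mutant, against 117, 113 and 111 CPM in postmitotic controls. There the groups overlapped, with a log2 fold change of -0.01 ± 0.08. The difference between the experiments for Igf1r was -0.20 ± 0.10 and was not called.

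Igf2r (chr17:12682406-12769664, minus strand), which binds Igf2 and removes it to lysosomes and also sorts lysosomal enzymes, had 65.5, 65.1, 65.1 and 62.1 CPM in progenitor libraries labelled mutant, against 47.1, 57.7, 56.0 and 51.8 CPM in progenitor controls. Again the groups did not overlap. The means were 64.4 ± 1.58 and 53.1 ± 4.72 CPM (SD, n = 4 each), and the log2 fold change was 0.28 ± 0.06 (SE; 95% interval 0.14 to 0.42). Igf2r had 51.2, 57.4 and 59.1 CPM in postmitotic libraries labelled mutant, against 62.5, 58.2 and 56.6 CPM in postmitotic controls, with overlap and a log2 fold change of -0.08 ± 0.08. The antisense transcript Airn, whose exons share no base with those of Igf2r, had 23 to 50 counts per progenitor library and 28 to 45 per postmitotic library.

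Irs1 (chr1:82233101-82291416, minus strand), which couples the receptor to phosphoinositide 3-kinase, had 32.6, 32.2, 27.4 and 28.1 CPM in progenitor libraries labelled mutant, against 27.0, 38.99, 33.5 and 37.3 CPM in progenitor controls. It had 15.2, 19.98 and 21.1 CPM in postmitotic libraries labelled mutant, against 18.9, 17.4 and 15.2 CPM in postmitotic controls. The groups overlapped in both, and the log2 fold changes were -0.19 ± 0.11 and 0.13 ± 0.13 (SE). Leaving out each library gave -0.28 to -0.12 for Irs1 in the progenitor experiment, called only without control 1 (-0.28) and nearest to 0 without control 2 (-0.12). The antisense gene Gm9747 shares 2822 bases, or 30.9%, of the exon bases of Irs1 and is listed at 0 in the postmitotic libraries, and whether counting used strand is unknown here.

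Of the binding proteins, Igfbp5, which binds both ligands and the extracellular matrix, differed most. It had 348, 355 and 461 CPM in postmitotic libraries labelled mutant, against 188, 196 and 193 CPM in postmitotic controls. All 3 controls lay within a narrow band, and every library labelled mutant lay far above it. The means were 388 ± 63.2 and 193 ± 3.77 CPM (SD, n = 3 each), and the log2 fold change was 1.01 ± 0.10 (SE; 95% interval 0.80 to 1.22). Leaving out each library in turn gave 0.87 to 1.08, and Igfbp5 was called each time. As the family was chosen on these values, this too is a description. In the authors' deposited table the log2 fold change of Igfbp5 is 0.88. The mean counts of that table match replicates 1 and 2 of each group for 100% of 17372 genes, within 0.1%.

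Progenitor libraries labelled mutant had 275, 282, 323 and 269 CPM of Igfbp5, against 217, 234, 200.4 and 274 CPM in progenitor controls. Control 4 reached into the range of the libraries labelled mutant. The means were 287 ± 24.4 and 231 ± 31.7 CPM (SD, n = 4 each), and the log2 fold change was 0.31 ± 0.09 (SE; 95% interval 0.10 to 0.52), beside 0.30 in the authors' deposited table. The difference between the experiments, postmitotic minus progenitor in 1 fit over the symbols in both tables, rests on the same fold changes and is likewise a description; for Igfbp5 it was 0.70 ± 0.15 on the log2 scale (95% interval 0.38 to 1.02). It was 0.56 to 0.77 when each library was left out, and called each time. Cre delivery, the cells that Cre reaches and the count table all differ between the experiments. Their parts in such differences cannot be told apart from that of the stage of deletion.

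The difference was likewise called for Igf2r, at -0.36 ± 0.10 (95% interval -0.58 to -0.14), so that 2 of 10 members were called, 1 higher and 1 lower, where 6.94% of 15643 genes were (485 higher and 601 lower). For Igf2r the call held only without progenitor control 2, progenitor control 3 or postmitotic library 3 labelled mutant, and was lost without any of the other 11 libraries, at -0.38 to -0.30. Among the calls of the progenitor experiment, that of Igf2r held when each library was left out, at 0.23 to 0.32. The call of Igfbp5 was kept only without control 4 (0.41) or library 4 labelled mutant (0.34), and that of Igf1r only without control 2 (0.21) or control 3 (0.21). Library 3 labelled mutant had high counts of both Y-linked genes and Xist. Without it, the log2 fold changes were 0.25 for Igfbp5, 0.21 for Igf1r and 0.27 for Igf2r, and only that of Igf2r was called. With the Y-linked CPM of each library as a covariate, the same 3 values were 0.26, 0.16 and 0.30, and 0 of the 10 members were called. In this experiment high Y-linked counts occurred only under the mutant label, so the fit cannot fully separate the covariate from the label.

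**Figure D3:**
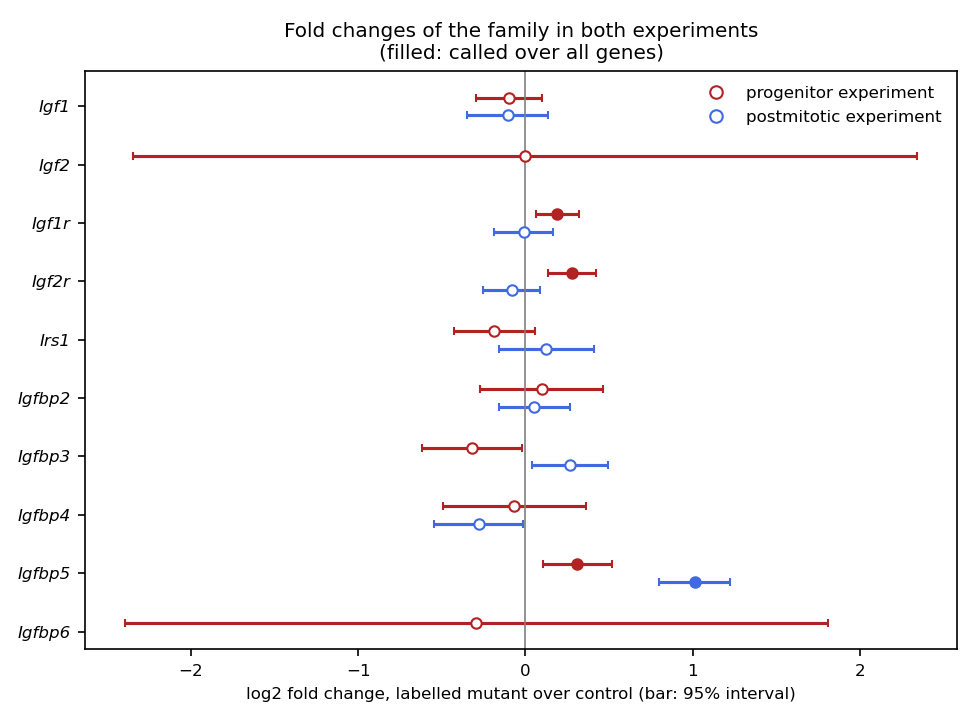
Log2 fold change of libraries labelled mutant over controls for each member in the progenitor and the postmitotic experiment, with the 95% interval as a bar; filled points were called over all genes, and Igf2 and Igfbp6 have no postmitotic value because they did not pass the filter on low counts. Igfbp5 lies at 0.31 (progenitor) and 1.01 (postmitotic) and is the only member called in both, and Igf2 and Igfbp6 have by far the widest intervals.

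Marker levels of other cells moved beside these values. The counts called below stand beside 23.4% of all progenitor genes and 1.96% of all postmitotic genes. The groups did not overlap for 27.0% of all progenitor genes and 16.4% of all postmitotic genes. Those shares are of single genes, so they give no measure for sums over a list. In the postmitotic experiment, 7 tested markers of deep-layer and subplate neurons summed to 344 to 445 CPM in libraries labelled mutant and 284 to 314 CPM in controls, without overlap. Of these, 3 were called higher and 0 lower (0 lower also at an unadjusted p under 0.05 and by DESeq2), with a median log2 fold change of 0.64, and none was at 0. Progenitor sums of the same list overlapped, at 240 to 379 CPM in libraries labelled mutant and 263 to 384 CPM in controls. Their median log2 fold change was -0.36, with 1 of 7 called lower and 0 higher (0 higher also at an unadjusted p under 0.05 and by DESeq2). In the progenitor experiment, 8 markers of mural cells of blood vessels summed to 324 to 422 CPM in libraries labelled mutant and 224 to 351 CPM in controls, with 5 called higher and none at 0. Postmitotic mural sums were 159 to 203 CPM in libraries labelled mutant and 177 to 207 CPM in controls, and 0 of 8 were called (0 also at an unadjusted p under 0.05 and by DESeq2). The 8 astrocyte markers summed to 489 to 555 CPM in postmitotic libraries labelled mutant and 562 to 649 CPM in their controls, without overlap. All 8 had log2 fold changes below 0, with a median of -0.23, and 0 were called by edgeR (6 lower at an unadjusted p under 0.05 and 1 by DESeq2). In the progenitor experiment the astrocyte sums overlapped, at 1009 to 1249 CPM in libraries labelled mutant and 1143 to 1529 CPM in controls. Of the 8 astrocyte markers 3 were called lower and 0 higher, with a median of -0.15. Fold changes of 3 were above 0, with 1 higher at an unadjusted p under 0.05 and 1 by DESeq2. Markers of neural progenitor cells summed there to 293 to 367 CPM in libraries labelled mutant and 225 to 311 CPM in controls. Of 7 tested, 3 were called higher, and fold changes of 5 were above 0 and of 2 below, with a median of 0.44. Eomes, the marker of intermediate progenitors in this list, was at 0 in 2 libraries labelled mutant and 1 control, and no astrocyte marker was at 0. All 8 microglia markers had progenitor log2 fold changes below 0 (median -0.35), with 1 called. All 8 oligodendrocyte lineage markers had postmitotic ones below 0 (median -0.12), with 0 called (0 also at an unadjusted p under 0.05 and by DESeq2). Of 8 upper-layer neuron markers, 3 were called higher and 1 lower in the progenitor experiment. In the postmitotic one, 1 was called higher and 2 lower. The part of these cells in the Igfbp5, Igf1r and Igf2r values was not tested.

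The 5 genes nearest to Igfbp5 over the 6 postmitotic libraries, among 10922 genes with at least 5 CPM, were Pdzrn4, Vgll3, Meis2, Fat1 and Rspo2, at root mean square distances of 0.115 to 0.155 in centred log2 CPM against a median of 0.521. Meis2 is a homeodomain transcription factor, Fat1 an atypical cadherin and Rspo2 a secreted amplifier of Wnt signals. Their log2 fold changes were 0.98, 1.18, 0.99, 0.80 and 1.18 in that order. As likeness was measured over both groups together, the choice of these genes fixed such fold changes, which are no separate result. Over the 8 progenitor libraries the nearest genes, a search chosen after the values were seen, were Ears2, Tmtc2, Adamts1, Sptlc2 and Igf2bp3, at 0.0572 to 0.0904 against a median of 0.244.

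Igfbp2, a binding protein abundant in glia and choroid plexus, had 119, 87.3, 103 and 80.0 CPM in progenitor libraries labelled mutant, against 88.9, 86.4, 115 and 74.3 CPM in progenitor controls. Postmitotic values were 69.1, 72.2 and 68.7 CPM in libraries labelled mutant, against 56.8, 77.7 and 68.3 CPM in controls. Its groups overlapped in both experiments, with log2 fold changes of 0.10 ± 0.16 and 0.05 ± 0.10 (SE). The neighbouring gene of Igfbp5 thus had 95% intervals of -0.27 to 0.46 and -0.16 to 0.26.

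Igfbp3 (chr11:7206086-7213923, minus strand), the chief carrier of the ligands in blood, had 18.2, 19.3, 13.2 and 16.7 CPM in progenitor libraries labelled mutant, against 17.8, 25.2, 18.8 and 22.3 CPM in progenitor controls. The groups overlapped, with means of 16.9 ± 2.64 and 21.0 ± 3.40 CPM (SD, n = 4 each) and a log2 fold change of -0.32 ± 0.14 (SE; 95% interval -0.62 to -0.02). Igfbp3 had 20.1, 19.1 and 16.8 CPM in postmitotic libraries labelled mutant, against 15.4, 15.3 and 15.8 CPM in postmitotic controls. There the groups did not overlap, and the log2 fold change was 0.27 ± 0.11 (95% interval 0.04 to 0.50). Neither was called. The difference between the experiments, 0.59 ± 0.18, was not called either, but was called by DESeq2 at 0.59 and without progenitor control 1, progenitor control 3, progenitor library 2 labelled mutant or postmitotic library 3 labelled mutant, at 0.64 to 0.66. The genes nearest to Igfbp3 over the 8 progenitor libraries were Flrt2, Spag6l, Kctd12, Zfp874b and Ermp1, at 0.0503 to 0.101 against a median of 0.276.

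Igfbp4 (chr11:99041244-99054392, plus strand), which is cut by the protease Pappa to release its ligand, had 72.0, 46.5, 48.7 and 44.3 CPM in progenitor libraries labelled mutant, against 53.2, 44.5, 69.7 and 54.1 CPM in progenitor controls. Postmitotic libraries labelled mutant had 28.8, 30.6 and 27.2 CPM, against 27.9, 40.9 and 36.2 CPM in postmitotic controls. In both experiments 1 or more libraries of each group fell among those of the other, and the log2 fold changes were -0.07 ± 0.19 and -0.28 ± 0.12 (SE), neither called. Among the progenitor libraries, library 1 labelled mutant and control 3 were the highest in Igfbp4, in Igf2, in Igfbp6 and in Igfbp2. The same 2 libraries had the highest fibroblast marker sums, 430 and 390 CPM, whose part in these values was not tested.

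Igfbp6 (chr15:102144362-102149511, plus strand), which prefers Igf2 over Igf1, had 3.70, 0.474, 0.498 and 1.21 CPM in progenitor libraries labelled mutant, against 0.204, 1.91, 3.93 and 1.13 CPM in progenitor controls. These correspond to 85, 11, 12 and 28 counts in libraries labelled mutant and 5, 50, 104 and 33 counts in controls. The log2 fold change was -0.29 ± 0.90 (SE; 95% interval -2.39 to 1.81), with an SD within groups at percentile 99.7 of all genes. Igfbp6 had 5, 12 and 5 counts in postmitotic libraries labelled mutant and 4, 5 and 4 counts in postmitotic controls, too few to be tested.

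The rest of the pathway was read from 66 genes that are not members: 25 relatives (other binding proteins, the insulin receptor, proteases, RNA-binding proteins of Igf2) and 41 genes of signalling behind the receptor. In the progenitor experiment 19 of the 59 genes tested were called, 7 higher and 12 lower, which is 32.2% beside 23.4% of all genes, and their median log2 fold change was 0.01. Among the relatives 3 of 18 rose and 2 fell, and among the signalling genes 4 of 41 rose and 10 fell. Of 59 genes tested in the postmitotic experiment, 1 was called, lower, which is 1.69% beside 1.96% of all genes. There 0 pathway genes were called higher by edgeR, with 5 at an unadjusted p under 0.05 and 3 by DESeq2. With the Y-linked CPM as a covariate, which is not fully separable from the label there, 5 progenitor pathway genes were called, 1 higher and 4 lower. Leaving aside genes named after their values were seen, those named next that were called with that covariate were Mapk3 and Sesn1. Igfbpl1 (1.09), Insr (0.25), Igf2bp3 (0.53), Tsc1 (0.32), Foxo1 (0.36) and Map2k1 (-0.41) were not called with it.

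Igfbpl1, a secreted protein related in sequence to the binding proteins, had the largest rise. It had 15.4, 16.5, 17.3 and 20.7 CPM in progenitor libraries labelled mutant, against 4.64, 6.52, 7.17 and 10.3 CPM in controls, and the log2 fold change was 1.28 ± 0.21 (SE), at an adjusted p of 0.00264 in edgeR's quasi-likelihood test. Postmitotic libraries labelled mutant had 37.6, 26.7 and 20.2 CPM of Igfbpl1, against 15.7, 18.4 and 17.3 CPM in postmitotic controls, and the log2 fold change was 0.72 ± 0.21 at an edgeR adjusted p of 0.194. Leaving out each library gave 0.46 to 0.91 for the postmitotic value, lowest without library 1 labelled mutant (0.46), which was not called, and highest without library 3 labelled mutant (0.91), the only such value called. It was also called by DESeq2 and with no filter. The difference between the experiments for Igfbpl1 was -0.56 ± 0.33, with an edgeR adjusted p of 0.331.

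The insulin receptor Insr, which can pair with Igf1r in hybrid receptors, had 82.0, 84.0, 82.9 and 83.4 CPM in progenitor libraries labelled mutant, against 61.9, 74.6, 70.1 and 68.0 CPM in controls. It rose by 0.27 ± 0.06 on the log2 scale (edgeR adjusted p = 0.00647). Igf2bp3, an RNA-binding protein known to bind Igf2 mRNA, rose by 0.45 ± 0.10 to 12.1 ± 1.11 CPM in progenitor libraries labelled mutant, against 8.86 ± 0.769 CPM in controls (edgeR adjusted p = 0.00846). Tsc1, a restraint on mTOR, rose by 0.24 ± 0.06 to 106 ± 4.70 CPM, against 89.9 ± 5.23 CPM in controls (edgeR adjusted p = 0.00946). The other signalling genes that rose were Foxo1, Akt1 and Rictor, and the relatives that fell were Ide and Irs4. Irs4 was under 1 CPM in every progenitor library. Akt1, Rictor, Ide and Irs4 were named after their values were seen.

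Genes of the mitogen-activated kinase branch behind the receptor were among the signalling genes that fell in the progenitor experiment. Mapk3, a kinase at the end of that branch, had 174, 177, 179 and 172 CPM in libraries labelled mutant, against 252, 213, 222 and 236 CPM in controls, and fell by 0.40 ± 0.06 on the log2 scale (edgeR adjusted p = 0.000792). Map2k1, a kinase that activates Mapk3, fell by 0.46 ± 0.07 to 49.7 ± 4.44 CPM in libraries labelled mutant, against 68.4 ± 4.41 CPM in controls (edgeR adjusted p = 0.00135). Sesn1, a stress-induced inhibitor of mTOR, fell by 0.35 ± 0.06 to 28.6 ± 1.34 CPM, against 36.5 ± 1.54 CPM in controls (edgeR adjusted p = 0.00187). Genes outside the mitogen-activated kinase branch were called lower as well. They included Foxo3 (-0.43), Pik3r3 (-0.38), Pik3cb (-0.34), Ddit4 (-0.19), Gsk3a (-0.18) and Mtor (-0.14), named after their values were seen. The fold change differed between the experiments for Mapk3, by 0.33 ± 0.09 (edgeR adjusted p = 0.0334), and was less negative in the postmitotic experiment.

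Foxo1, a transcription factor that Akt keeps out of the nucleus, moved in opposite directions. Within the postmitotic experiment it had 11.7, 15.9 and 12.7 CPM in libraries labelled mutant, against 21.1, 23.1 and 26.4 CPM in controls, and fell by 0.80 ± 0.13 on the log2 scale (edgeR adjusted p = 0.00482). Within the progenitor experiment it had 35.1, 36.3, 31.1 and 29.9 CPM in libraries labelled mutant, against 27.6, 24.6, 27.2 and 29.5 CPM in controls, and rose by 0.28 ± 0.08 (edgeR adjusted p = 0.0253). Neither pair of groups overlapped. The progenitor call was lost without control 2 (0.24), library 1 labelled mutant (0.26) or library 2 labelled mutant (0.24). The difference between the experiments was -1.08 ± 0.15 (edgeR adjusted p = 0.000624), and it was called when each of the 14 libraries was left out, at -1.22 to -0.99. Ddit4, Gsk3a, Grb14 and Adam9, named after their values were seen, also differed between the experiments. In all, 7 of 61 pathway genes did, or 11.5% beside 6.94% of all genes.

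**Figure D4:**
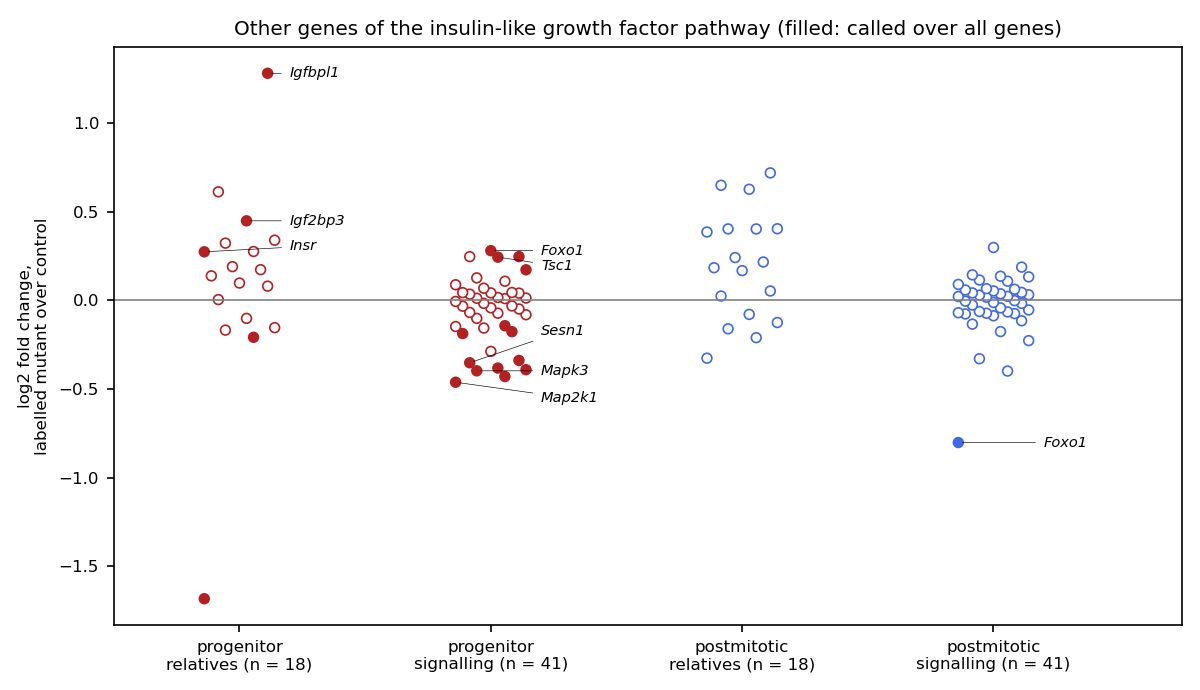
Log2 fold change of libraries labelled mutant over controls for the 59 pathway genes tested in each experiment that are not members, split into relatives of the family (n = 18) and signalling genes (n = 41); filled points were called over all genes, and the named ones are labelled. Foxo1 is above 0 in the progenitor experiment (0.28) and is the only gene called in the postmitotic experiment (-0.80), and the lowest point on the left is Irs4 (-1.68).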

How the data were processed

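Polyadenylated RNA of the 14 libraries was sequenced, and the authors deposited whole-number read counts per gene symbol, 1 table per experiment. The submitters' processing notes name mm10 as the build and HISAT2, featureCounts and DESeq2 as tools. Their versions, the annotation and the use of strand in counting are not given in the sources at hand. The authors also deposited DESeq2 results per the file headers: mean normalised counts (a signal column), log2 fold changes, p-values and the test statistic, a score. Only the first 2 columns of these were used.

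Each experiment was tested alone on the counts with edgeR 4.0.16 in R 4.3.3 (filterByExpr, TMM, a robust quasi-likelihood fit, Benjamini-Hochberg adjustment over all genes tested). Fold changes are libraries labelled mutant over controls, their SE is the absolute value over the root of F, and CPM use TMM-scaled totals. Whether fold changes differed between experiments was tested as an interaction term over the 24690 symbols in both tables. Likeness was the root mean square distance of centred log2(CPM + 0.5). Alternatives were DESeq2 1.42.0, its scaling factors, no filter, the replicate number as a block, Y-linked CPM as a covariate and leaving out each library. The procedure was tested on simulated data. Replicates of a group differed beyond sampling noise, with chi-square values of 6.73 to 20.7 per degree of freedom. The members, the pathway and marker lists and the tests were chosen with earlier results of these data known. The text names all members, up to 4 called pathway genes per direction and experiment with the smallest p, and the 5 genes nearest to the member with the largest fold change in each experiment where its mean is at least 5 CPM. Of the pathway genes so chosen, 1 is not reported here. Other genes are said to be named after their values were seen. Positions are from GENCODE M21 and promoter windows from RefSeq, both on GRCm38. The files held 0 columns of other samples.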

Additional observations from a re-analysis of the deposited data

Results flagged for a closer look

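Within groups of 4 libraries, a library stood apart from the other 3 in 3 members, each time in the progenitor libraries labelled mutant, where the gap to the nearest library passed Dixon's critical share of the range of the group. Igf1r was highest in library 4 labelled mutant (133 CPM), with a gap of 0.856 of the range. Igf2r was lowest in library 4 labelled mutant (62.1 CPM), with a gap of 0.881 of the range. Igfbp4 was highest in library 1 labelled mutant (72.0 CPM), with a gap of 0.840 of the range. Chance alone gives such a gap in about 5% of groups.

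For 2 members the difference between the experiments was called in the fit over all genes. Postmitotic minus progenitor, it was 0.70 for Igfbp5 and -0.36 for Igf2r on the log2 scale, and for Igf2r the call was lost without any 1 of 11 of the 14 libraries. The family was chosen on the fold changes from which these differences are made, so they are a description.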

How the results depend on the processing

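The count of all genes called moved most with the Y-linked covariate, to 948 in the progenitor experiment (of 3577) and 276 for the difference (of 1086). DESeq2 called 524 genes in the postmitotic experiment (of 348) and 1651 for the difference, and no filter gave 723 in the postmitotic experiment. Members called moved to 0 in the progenitor experiment with the covariate (of 3), and to 1 for the difference with no filter and with the covariate (of 2). Pathway genes called moved to 5 in the progenitor experiment with the covariate (of 19), and to 4 in the postmitotic experiment by DESeq2 and with no filter (of 1). Leaving out each library gave 2383 to 3712 progenitor, 160 to 467 postmitotic and 598 to 1481 difference calls over all genes, the lowest without progenitor library 3 labelled mutant, postmitotic control 2 and postmitotic control 1. It gave 1 to 2 progenitor members, 1 to 3 members for the difference, 11 to 19 progenitor pathway genes and 1 to 2 postmitotic pathway genes.

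Replicate numbers did not pair the libraries: deviations of same-numbered libraries correlated at -0.445 to 0.0762. With the replicate number as a block, 659 genes and 1 member were called for the difference, the progenitor calls of Igf1r, Igfbp5 and Foxo1 were lost, and progenitor Igfbp3 was called at -0.32.

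Fold changes of some members changed sign. The covariate gave 1.19 for Igf2, 0.38 for Igfbp4 and 0.99 for Igfbp6 in the progenitor and 0.0279 for Igf1r in the postmitotic experiment. For the difference, Igf1 was 0.000156 by DESeq2 and 0.00457 with no filter. Leaving out each library gave -0.93 to 0.49 for Igf2, -0.25 to 0.0632 for Igfbp4, -1.30 to 0.42 for Igfbp6 and -0.0122 to 0.23 for Igfbp2 in the progenitor experiment, -0.0761 to 0.0808 for Igf1r and -0.0604 to 0.16 for Igfbp2 in the postmitotic one, and -0.0793 to 0.0520 for Igf1 and -0.17 to 0.0704 for Igfbp2 for the difference. The cause of these moves was not tested. Igfbp5 was called in the postmitotic experiment and for the difference under every alternative run, which is a description, since the family was chosen on these values. Low counts limit Igfbp6 and postmitotic Igf2.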
